A study of Mus musculus with 45 samples.

Results

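Mouse hippocampal primary neurons that had been exposed to toxic NMDA receptor activation during action potential (AP) firing were compared at 2 exposure lengths. The comparison used 10 of the 45 RNA sequencing libraries of the study, selected by their treatment labels. In the 5 libraries of the long protocol (LP) arm, neurons received the GABA-A receptor antagonist bicuculline (Bic, 50 µM) for 1 h, and then tetrodotoxin (TTX, 1 µM) together with NMDA (30 µM) for 1 h. In the 5 libraries of the short protocol (SP) arm, the same drugs at the same concentrations were given for 0.5 h and 0.5 h. Per the methods of the study, Bic stayed in the medium during the TTX/NMDA step. Since both steps were longer in the LP arm, the longer Bic priming and the longer NMDA exposure cannot be told apart in this comparison. Each arm held 1 library from each of 5 culture preparations, numbered 1, 3, 6, 7 and 8. All cultures came from newborn C57BL/6N mice, were grown with 1% rat serum and B27, received AraC (which limits the division of glia) on day 3 in vitro, and were treated on day 10 or 11 per the labels (the methods of the study give day 11 for RNA sequencing). The rest of the study consists of untreated neurons, Bic alone for 0.5, 1 or 2 h, TTX without NMDA in the same SP and LP timing, and a glutamate uptake blocker, each with 5 libraries. The TTX arms of the same preparations served here as the matched comparison for AP blockade without NMDA.

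Bicuculline removes inhibition and drives recurrent bursts of APs, and the calcium that enters through synaptic NMDA receptors and voltage-gated channels induces immediate early genes (IEGs) through kinases that act on CREB, SRF and MEF2. TTX blocks the sodium channels that carry APs, so transcription that depends on firing is withdrawn. Bath-applied NMDA also reaches NMDA receptors outside synapses, whose activation is known to shut off CREB and to damage neurons. The question of the comparison is how the RNA content of these cultures differs when the whole sequence of firing, blockade and NMDA is given for longer.

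The SP libraries held between 24411692 and 37251209 counts (median 24831677) and the LP libraries between 13467115 and 48077885 (median 33539111), where preparation 6 was the shallowest. The libraries of each arm were alike (lowest Pearson r between log2 CPM values of an arm 0.992 in SP and 0.990 in LP). Values per library are given below as CPM, the counts of a gene relative to the total of its library, scaled with TMM factors, always in the order of preparations 1, 3, 6, 7 and 8. Neuronal markers were high in both arms, for example Map2 with 1308 ± 112 CPM (SD, n = 5) in SP and 1237 ± 161 CPM in LP, and Gad1, which marks inhibitory neurons, with 1032 ± 143 and 1192 ± 176 CPM. The astrocyte marker Gfap reached 269 ± 92.5 and 415 ± 165 CPM, so that the cultures labelled as neurons also held glial RNA. The microglia markers were near 0 (Tmem119 at 0.438 and 0.464 CPM on average).

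Of 16018 genes tested with edgeR's quasi-likelihood test, with the preparation as a block and Benjamini-Hochberg adjustment, 3368 (21%) were higher and 3299 (20.6%) were lower in the LP arm at an adjusted p under 0.05, together 41.6% of the genes. The increases were the larger changes. Among the genes that were higher, the median change was 0.42 on the log2 scale, and 268 genes exceeded 1. Among the genes that were lower, the median size was 0.22, and only 10 fell by more than 1. The 2 arms did not overlap, with every LP library above or every LP library below the SP libraries, for 5.07% and 7.74% of the genes tested. In all 5 preparations, 2776 of the 3368 increases and 2934 of the 3299 decreases had the same direction. The median over all genes tested was 0.00. In bulk RNA, fewer cells of a type and less RNA per cell cannot be told apart. In the matched TTX arms, 1922 of 16001 genes (12%) were higher and 1700 (10.6%) were lower in LP, together 22.6%. This split of the TTX calls depended on scaling, since upper quartile size factors gave 1554 higher and 2342 lower. Without the preparation block, 1279 genes were higher and 1321 were lower in the TTX/NMDA comparison. Nothing in the labels says that samples of a preparation came from different animals. The p-values of the blocked fit measure how much the difference between the arms varied over these preparations.

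The 4 lists with the highest medians were those named for IEG transcription factors, which also hold the Nab corepressors and Fbxo33, an F-box protein. All 7 tested AP-1 subunits, all 3 Nr4a receptors and 5 of 6 Egr factors and Nab corepressors were higher in LP. So were 17 of 24 genes listed as other activity-induced transcription factors, against 21% of all genes tested. The list medians were 1.20, 1.53, 1.18 and 0.80 on the log2 scale (0.00 over all genes). Only 3 genes of these 4 lists were lower. The lists hold known activity-induced genes that the study itself examined, so their counts are a description of these arms.

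Fos, which encodes the AP-1 partner of the Jun proteins, is the textbook IEG. Fos measured 333, 462, 314, 456 and 323 CPM in the SP libraries and 967, 1242, 1226, 1032 and 871 CPM in the LP libraries. Each LP library lay above each SP library, with a log2 difference of 1.52 ± 0.08 (SE, edgeR adjusted p = 9.78e-11). Fosb, another Fos family member, moved from a mean of 166 to 566 CPM (log2 difference 1.78 ± 0.08 SE, edgeR adjusted p = 1.84e-11). Fosl2 differed by 1.20 ± 0.06 (SE, edgeR adjusted p = 1.32e-10), and Junb by 1.20 ± 0.09 (SE, edgeR adjusted p = 3.59e-08). Fosl1 had the largest change of all genes that met the rule for naming, with 0.463, 0.532, 0.506, 0.5098 and 0.613 CPM in the SP libraries and 3.47, 4.71, 4.04, 4.02 and 2.86 CPM in the LP libraries. It was below 1 CPM in all SP libraries, and 5 of 5 preparations were higher in LP, by 2.82 ± 0.16 (SE, edgeR adjusted p = 3.32e-10).

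Nr4a1, an orphan nuclear receptor of the immediate early response, measured 159, 254, 192, 265 and 173 CPM in the SP libraries and 552, 617, 668, 614 and 504 CPM in the LP libraries. The arms did not overlap, and the log2 difference was 1.53 ± 0.07 (SE, edgeR adjusted p = 5.19e-11). Its relatives Nr4a2 and Nr4a3 differed by 2.01 ± 0.07 (SE, edgeR adjusted p = 2.81e-12) and 1.12 ± 0.06 (SE, edgeR adjusted p = 1.31e-10). Among the zinc finger factors of the Egr family, Egr2 had the largest difference, from 15.2, 24.6, 14.7, 21.2 and 22.1 CPM in SP to 76.7, 89.1, 90.4, 69.9 and 79.05 CPM in LP. The log2 difference of Egr2 was 2.06 ± 0.09 (SE, edgeR adjusted p = 2.53e-11), while Egr1 rose from a mean of 388 to 873 CPM (1.18 ± 0.06 SE, edgeR adjusted p = 2.33e-10). Egr4 and Egr3 differed by 1.36 and 1.17, and the corepressor Nab2 by 0.21. Nab1 did not pass the test (0.07, edgeR adjusted p = 0.368).

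The promoters of Fos, Nr4a1, Btg2 and Homer1 are shown because the data turn on activity-induced transcription. Their upstream sequence carries the core of the cyclic AMP response element (CRE), the site that CREB binds, and only that of Btg2 the full palindrome. Each stretch is the 250 bases before the RefSeq gene start in GRCm38.p6, on the strand of the gene, 5′ to 3′. Capitals mark the CRE core, TGACG or CGTCA, and in Btg2 the full palindrome TGACGTCA, which contains the core on both strands. Fos lies on chr12:85473640-85473889 (plus strand), Nr4a1 on chr15:101266596-101266845 (plus strand), Btg2 on chr1:134079156-134079405 (minus strand) and Homer1 on chr13:93303507-93303756 (plus strand).
Fos: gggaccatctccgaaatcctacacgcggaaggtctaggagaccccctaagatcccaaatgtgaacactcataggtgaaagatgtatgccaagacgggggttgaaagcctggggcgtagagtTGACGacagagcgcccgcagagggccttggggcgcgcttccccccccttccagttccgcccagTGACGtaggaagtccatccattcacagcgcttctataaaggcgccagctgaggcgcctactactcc
Nr4a1: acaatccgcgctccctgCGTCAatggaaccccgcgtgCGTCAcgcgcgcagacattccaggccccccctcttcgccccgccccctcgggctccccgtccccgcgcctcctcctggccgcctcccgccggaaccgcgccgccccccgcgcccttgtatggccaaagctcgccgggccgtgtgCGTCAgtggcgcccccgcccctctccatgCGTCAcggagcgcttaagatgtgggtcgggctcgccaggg
Btg2: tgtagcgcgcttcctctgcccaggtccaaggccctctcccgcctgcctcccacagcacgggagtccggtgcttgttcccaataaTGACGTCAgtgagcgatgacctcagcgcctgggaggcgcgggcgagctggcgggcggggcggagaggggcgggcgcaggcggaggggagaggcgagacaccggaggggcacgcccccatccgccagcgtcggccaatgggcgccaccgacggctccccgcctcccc
Homer1: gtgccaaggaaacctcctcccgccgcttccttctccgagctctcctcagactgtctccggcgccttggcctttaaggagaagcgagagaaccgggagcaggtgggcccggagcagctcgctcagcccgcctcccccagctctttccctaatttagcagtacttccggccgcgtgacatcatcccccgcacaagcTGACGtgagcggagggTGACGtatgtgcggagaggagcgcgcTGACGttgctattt
The core is common: it was found on either strand in 17.9% of the 27025 mouse promoters of this length, and the full palindrome in 1.62%. Among the 11700 tested genes that had a promoter in the table these shares were 26.6% and 2.74%. Of the 32 genes with a promoter that were named by size, by the fixed list or by the difference from TTX, 17 held the core. Bdnf, Inhba, Egr2, Maff, Tiparp and Ptgs2 held none in this window. The scan covered a single window per gene. Cores at other start sites, such as that of the Bdnf exon IV transcript measured by the study, may lie outside it. Fos held 2 cores, at 129 and 66 bases before the start, Nr4a1 held 4, Homer1 held 3 within 56 bases of the start, and the Btg2 palindrome began 166 bases before the start. Only 123 of the 268 genes that were more than 1 log2 unit higher had a promoter in the table, and 45 of these (36.6%) held the core and 8 (6.5%) the palindrome. Of the 230 genes lower by more than 0.5, 156 had one and 27 of these (17.3%) held the core. Since so many of these genes had no promoter in the table, a comparison of these shares is void, and a match is a description of the letters in this window.

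Atf3, a stress- and activity-induced repressor of the ATF family, measured 9.26, 17.4, 13.8, 11.6 and 29.2 CPM in the SP libraries and 85.9, 115, 119.9, 86.1 and 111 CPM in the LP libraries. All LP values were above all SP values, with a difference of 2.73 ± 0.12 (SE, edgeR adjusted p = 2.53e-11). Klf4, a Krüppel-like factor, rose from 7.18, 18.6, 12.5, 14.1 and 5.87 CPM in SP to 65.9, 93.2, 71.3, 51.4 and 43.8 CPM in LP, or by 2.52 ± 0.12 (SE, edgeR adjusted p = 4.61e-11). Npas4, the neuron-specific factor that is induced by calcium entry, measured 399, 496, 363, 476 and 389.9 CPM in the SP libraries and 861, 986, 1046, 919.8 and 821 CPM in the LP libraries. The arms did not overlap, and the Npas4 difference was 1.14 ± 0.06 (SE, edgeR adjusted p = 4.52e-10). Maff, a small Maf protein, and Fbxo33, an F-box protein, differed by 2.19 ± 0.10 (SE, edgeR adjusted p = 3.99e-11) and 2.00 ± 0.08 (SE, edgeR adjusted p = 1.02e-11), and Sertad1 by 1.597 ± 0.13 (SE, edgeR adjusted p = 5.77e-08). Srf, Bhlhe40 and Ier5l did not pass the test, with log2 differences of 0.03, 0.12 and 0.13 (edgeR adjusted p = 0.7, 0.116 and 0.226). Klf10, a TGF-β-inducible member of the same list, was lower in LP, by -0.37 ± 0.10 (SE, edgeR adjusted p = 0.0057), in 4 of 5 preparations.

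**Figure D1:**
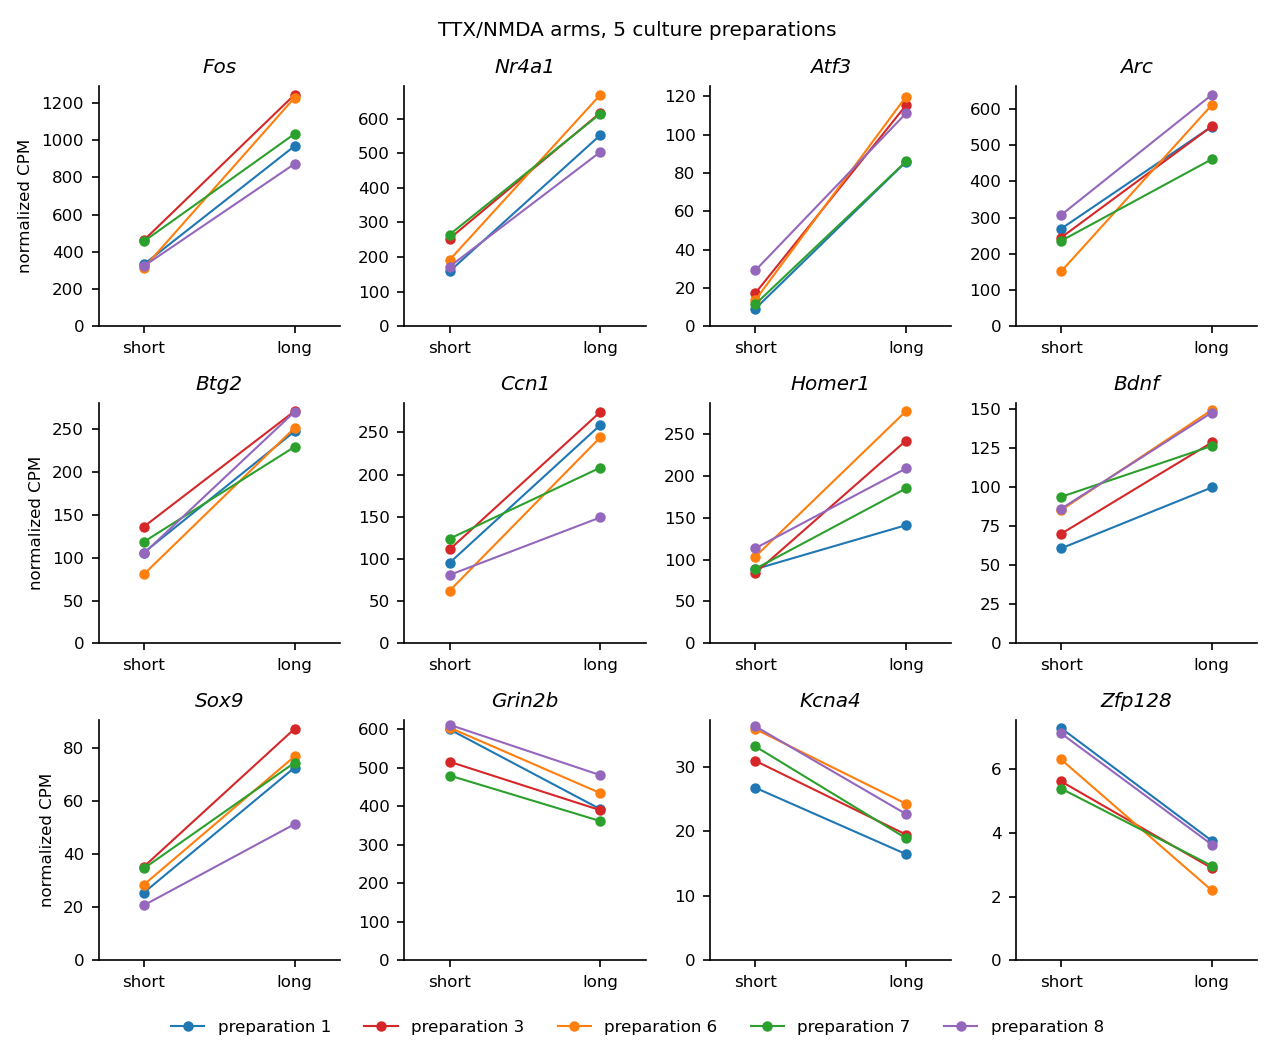
Normalized CPM (vertical axes, from 0) of 12 genes in the short and long TTX/NMDA arms, with 1 line for each of the 5 preparations. The lines of the 9 genes from Fos to Sox9 go up in all 5 preparations and those of Grin2b, Kcna4 and Zfp128 go down in all 5.

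Feedback regulators of signalling were also mostly higher in LP. Of the 19 MAP kinase feedback inhibitors, 12 were higher and 4 were lower (median 0.35), against 21% and 20.6% of all genes tested. Of 12 Tribbles, Sik, Pim and Plk kinases 7 were higher and 1 was lower (median 0.32). Without NMDA, in the TTX arms, 8 MAP kinase inhibitors were higher and 5 were lower (median 0.27). Of the Tribbles, Sik, Pim and Plk kinases 8 were higher and 1 was lower there (median 0.35). Dusp1, the dual-specificity phosphatase that inactivates nuclear MAP kinases, rose from a mean of 74.4 to 174 CPM (1.26 ± 0.08 SE, edgeR adjusted p = 1.05e-09). Errfi1, an inhibitor of the EGF receptor, Dusp14 and Dusp5 differed by 1.29, 1.01 and 0.99 (edgeR adjusted p at most 4.22e-09). Trib1, a pseudokinase that directs proteins to degradation, measured 16.7, 25.3, 17.2, 23.96 and 20.7 CPM in the SP libraries and 41.2, 56.9, 55.1, 56.6 and 45.4 CPM in the LP libraries. Its arms did not overlap (1.302 ± 0.06 SE, edgeR adjusted p = 7.62e-11). The kinases Sik1 and Plk2, which act on CRTC coactivators and on synaptic proteins, differed by 1.27 ± 0.06 (SE, edgeR adjusted p = 1.20e-10) and 1.10 ± 0.05 (SE, edgeR adjusted p = 2.16e-11). Dusp3, Spry3 and Dusp2 did not pass the test (-0.09, 0.02 and -0.24), nor did Pim2, Sik2 and Trib3 (0.10, 0.09 and -0.20).

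Of the 16 genes of antiproliferative and RNA-decay feedback, 11 were higher in LP and none was lower by edgeR's test, also at an unadjusted p under 0.05 (0 genes) and by DESeq2 (0 genes). The median was 0.60, against -0.10 in the TTX arms, and 9 were higher without the block. Btg2, which recruits the deadenylation machinery to mRNA, measured 106, 136, 80.6, 118 and 105 CPM in the SP libraries and 247, 271, 251, 229 and 270.0 CPM in the LP libraries. The highest SP library lay below the lowest LP library, and the difference was 1.24 ± 0.07 (SE, edgeR adjusted p = 9.15e-10). The stress-inducible Gadd45b and Gadd45g, known for their part in DNA demethylation in neurons, differed by 1.88 ± 0.07 (SE, edgeR adjusted p = 7.71e-12) and 1.43 ± 0.09 (SE, edgeR adjusted p = 2.16e-09). Tob2 and the GTPase Gem differed by 1.11 and 1.20. Zfp36l2, Tnfaip3 and Socs3 did not pass the test, with differences of 0.12, -0.26 and -0.12.

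Of the 27 effectors of activity-induced transcription, which act at synapses or are secreted, 21 were higher and 3 were lower (median 0.63, and 0.74 in the TTX arms). Ptgs2, the inducible cyclooxygenase, had the largest difference among them, from 9.64, 9.53, 7.05, 10.5 and 5.64 CPM in SP to 38.6, 50.4, 52.5, 31.4 and 24.4 CPM in LP (2.18 ± 0.12 SE, edgeR adjusted p = 2.07e-10). Arc, which controls AMPA receptor endocytosis, measured 269.5, 245, 152, 236 and 307 CPM in the SP libraries and 552, 552, 611, 461 and 639 CPM in the LP libraries. Arc was higher in LP in 5 of 5 preparations, by 1.25 ± 0.10 (SE, edgeR adjusted p = 6.26e-08). Adamts1, a secreted protease, differed by 1.38 ± 0.06 (SE, edgeR adjusted p = 3.64e-11). Serpinb2 and Crh also passed the test (1.85 and 1.20), at means below 2 CPM in both arms.

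The neurotrophin gene Bdnf measured 60.7, 70.01, 85.1, 93.6 and 85.99 CPM in the SP libraries and 99.6, 128, 149, 126 and 147 CPM in the LP libraries. The arms did not overlap, but the preparations differed within each arm, with preparation 1 the lowest in both, and the difference was 0.73 ± 0.06 (SE, edgeR adjusted p = 2.40e-08). The untreated cultures had 108 ± 22.98 CPM (SD, n = 5), between the means of the arms (79.1 CPM in SP and 130.1 CPM in LP). Inhba, which encodes activin A, a neuroprotective factor, measured 6.597, 4.86, 7.94, 5.26 and 7.23 CPM in the SP libraries and 8.78, 9.08, 13.3, 7.403 and 10.7 CPM in the LP libraries. The lowest LP value lay below the highest SP value, although 5 of 5 preparations were higher in LP (0.63 ± 0.08 SE, edgeR adjusted p = 9.41e-06). Homer1, whose short activity-induced form uncouples postsynaptic scaffolds, measured 88.6, 84.03, 104, 89.01 and 113 CPM in the SP libraries and 141, 242, 277, 185 and 209 CPM in the LP libraries and differed by 1.12 ± 0.09 (SE, edgeR adjusted p = 3.84e-08). The count per gene does not separate the Homer1 isoforms. Cpeb3, Mmp9 and Baz1a did not pass the test (0.09, -0.19 and 0.31; edgeR adjusted p = 0.356, 0.246 and 0.197). Baz1a, a chromatin remodelling subunit at a mean below 2 CPM in both arms, was higher in LP in the TTX arms (2.16 ± 0.18 SE, edgeR adjusted p = 1.06e-05), with a contrast of -1.84 ± 0.28 (SE, edgeR adjusted p = 1.06e-04) between the differences with and without NMDA.

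Genes outside these lists were also among the 12 largest increases. Tiparp, a mono-ADP-ribosyltransferase, measured 14.7, 20.4, 22.1, 23.05 and 18.2 CPM in the SP libraries and 84.5, 121, 122, 91.9 and 99.4 CPM in the LP libraries. Its difference of 2.40 ± 0.07 (SE, edgeR adjusted p = 2.61e-13) had the smallest SE of the 12. Ccno, a cyclin known from multiciliated cells, differed by 2.20 ± 0.09 (SE, edgeR adjusted p = 1.02e-11), Stil, a centriole protein, by 2.12 ± 0.13 (SE, edgeR adjusted p = 2.01e-09), and Tnfaip6, a hyaluronan-binding protein, by 2.12 ± 0.13 (SE, edgeR adjusted p = 1.11e-09). Without NMDA, in the TTX arms, Tiparp and Ccno differed by 0.99 and 0.90, less than with it. Stil and Tnfaip6 differed there by 2.57 and 2.00, with contrasts of -0.48 and 0.10 (edgeR adjusted p = 0.0821 and 0.777). Stil had a mean of 17.9 CPM in LP TTX and 4.98 CPM in LP TTX/NMDA. The unnamed transcripts Gm43359 and Gm44799 rose from means of 0.677 to 4.46 CPM (2.74) and 0.656 to 3.39 CPM (2.34). Gm44799 stood at 0.327 CPM in untreated cultures, 0.184 CPM after 2 h Bic and 0.297 CPM in the LP TTX arm on average, below its mean in either TTX/NMDA arm.

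The matched TTX arms showed how the same genes differed between the protocols without NMDA, and the difference between the 2 long-minus-short differences was tested in 1 fit over the 20 libraries. Of 16663 genes tested, 1641 (9.85%) had a higher and 2524 (15.1%) a lower difference with NMDA than without, together 25%. This split turned with the scaling, to 2471 and 1495 with upper quartile size factors, and without the block it was 323 and 926. Single genes are therefore given by their values.

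Ccn1, a secreted matrix protein that responds to SRF and YAP, had the largest such difference among called genes with a mean of at least 2 CPM over the 10 TTX/NMDA libraries. Ccn1 measured 95.5, 111, 62.5, 124 and 81.1 CPM in the SP libraries and 259, 274, 244, 208 and 149 CPM in the LP libraries. In the TTX arms it measured 155, 119, 105, 106 and 95.3 CPM in SP and 8.96, 10.3, 8.23, 8.42 and 4.89 CPM in LP. Ccn1 was thus higher in LP with NMDA (1.27 ± 0.11 SE, edgeR adjusted p = 1.59e-07) and lower in LP without it (-3.82 ± 0.10 SE, edgeR adjusted p = 4.27e-09), and the contrast between them was 5.07 ± 0.19 (SE, edgeR adjusted p = 8.35e-13). The mean of the LP TTX arm, 8.16 CPM, was close to that of untreated cultures (8.02 CPM), whereas LP TTX/NMDA held 227 ± 49.8 CPM (SD, n = 5). Bic without an intervention gave 330.1 ± 39.1 CPM after 1 h and 209.9 ± 66.6 CPM after 2 h (SD, n = 5).

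Btg2 showed the same opposition, with 239, 250.4, 194, 207 and 215 CPM in SP TTX and 40.1, 48.1, 53.8, 27.97 and 31.02 CPM in LP TTX. Its difference was -2.49 ± 0.12 (SE, edgeR adjusted p = 2.64e-07) without NMDA, and the contrast was 3.68 ± 0.18 (SE, edgeR adjusted p = 3.81e-11). Trib1, Nr4a1, Arc and Dusp1 were likewise lower in LP without NMDA, by -1.50, -0.95, -1.03 and -1.54, and their contrasts were 2.77, 2.43, 2.21 and 2.74 (edgeR adjusted p at most 1.61e-07). Kcnj2, an inward rectifier potassium channel, was 0.80 with and -2.11 without NMDA (contrast 2.90 ± 0.18 SE, edgeR adjusted p = 1.05e-09), and its TTX/NMDA arms overlapped. Klf4 did not pass the test without NMDA (-0.37 ± 0.19 SE, edgeR adjusted p = 0.191), and its contrast was 2.87 ± 0.25 (SE, edgeR adjusted p = 1.33e-07). Gm43359 was lower without NMDA (-0.67, contrast 3.31 ± 0.25 SE, edgeR adjusted p = 1.70e-08).

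Other genes had the larger difference between protocols in the TTX arms. In the TTX arms Homer1 was higher in LP by 2.46 ± 0.08 (SE, edgeR adjusted p = 1.60e-08), from a mean of 153 to 834 CPM, more than the 1.12 with NMDA (contrast -1.36 ± 0.15 SE, edgeR adjusted p = 2.86e-06). Inhba behaved alike, with 2.02 ± 0.09 (SE, edgeR adjusted p = 1.30e-07) without NMDA and a contrast of -1.42 ± 0.16 (SE, edgeR adjusted p = 4.03e-06). For Bdnf the difference without NMDA was 0.98 ± 0.07 (SE, edgeR adjusted p = 2.46e-06), and the contrast of -0.27 ± 0.11 (SE, edgeR adjusted p = 0.0641) did not pass the threshold. Fos, Npas4, Egr1 and Atf3 had contrasts of 0.78, 0.78, 1.04 and 0.87, all toward a larger difference with NMDA (edgeR adjusted p at most 0.0158).

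The most negative contrast above the same minimum of 2 CPM belonged to Klf10, which measured 22.7, 26.1, 31.2, 26.3 and 33.5 CPM in SP TTX and 124, 124, 119, 120.2 and 130.3 CPM in LP TTX. The TTX difference of 2.15 ± 0.07 (SE, edgeR adjusted p = 2.22e-08) stood against -0.37 with NMDA, and the contrast was -2.53 ± 0.14 (SE, edgeR adjusted p = 3.03e-10). The ubiquitin ligase Rnf217 (mean 194 CPM in LP TTX and 47.4 CPM in LP TTX/NMDA) had a contrast of -1.80 ± 0.12 (SE, edgeR adjusted p = 1.75e-09). Pard6b, a cell polarity protein, Insm1, a zinc finger repressor of neuroendocrine cells, the cyclin Ccnj and Zfp189 were higher in LP TTX (1.27, 0.94, 1.20 and 1.28) and lower in LP TTX/NMDA (-0.89, -1.05, -0.61 and -0.30), with contrasts between -2.24 and -1.62.

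**Figure D2:**
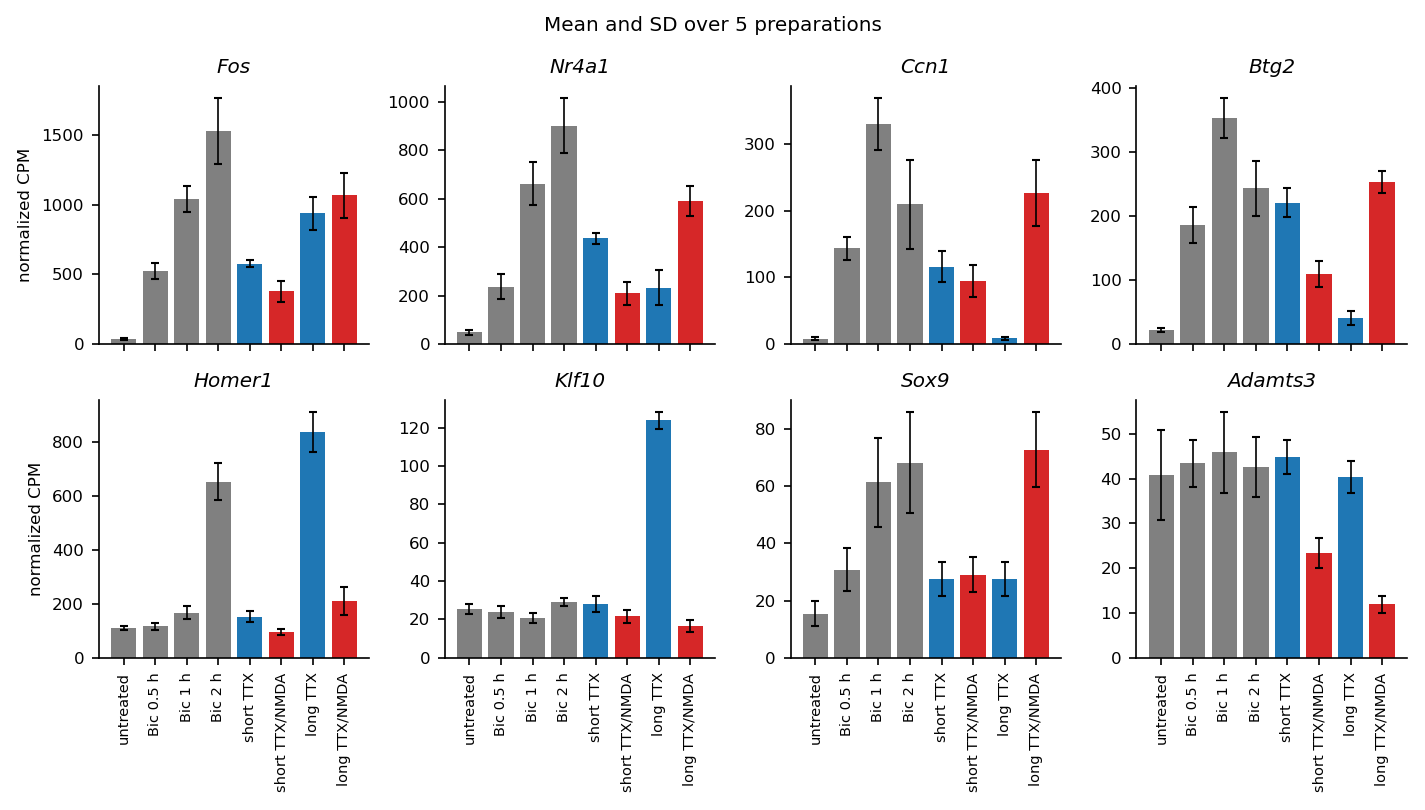
Normalized CPM (vertical axes, from 0) of 8 genes in 8 conditions, as mean (bar) and SD (whisker) over 5 preparations, with Bic alone and untreated cultures in grey, TTX arms in blue and TTX/NMDA arms in red. Ccn1 and Btg2 are low in the long TTX arm and high in the long TTX/NMDA arm, and Homer1 and Klf10 show the opposite order.

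The genes that were lower in LP changed less. The lists of ion channels, receptors and synaptic proteins held more genes that were lower than higher. Of the 32 voltage-gated potassium channel genes, 19 were lower and 1 was higher (20.6% of all genes were lower), with a median of -0.22, against -0.01 in the TTX arms. Kcna4, a rapidly inactivating A-type channel, measured 26.7, 30.9, 35.8, 33.1 and 36.2 CPM in the SP libraries and 16.5, 19.5, 24.3, 18.9 and 22.7 CPM in the LP libraries. The arms did not overlap, and the difference was -0.67 ± 0.05 (SE, edgeR adjusted p = 2.02e-08), with a contrast against TTX alone of -1.02 ± 0.09 (SE, edgeR adjusted p = 1.61e-07). Kcnv1, Kcng2 and Kcnq5 were lower by -0.70, -0.62 and -0.47. Kcnf1 was the member that was higher (0.55 ± 0.06 SE, edgeR adjusted p = 2.79e-06), and Kcnc1, Kcna2 and Kcnc2 did not pass the test (-0.02, -0.10 and 0.03). Without the block, 8 channel genes were lower and 1 was higher. The summed level of the 7 excitatory neuron markers was also lower in LP, in 5 of 5 preparations, with 1575 to 2062 CPM in SP and 1189.9 to 1640.0 CPM in LP, and its part in the lower levels of neuronal genes was not tested.

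The NMDA receptor list had 7 tested genes, 6 for subunits and Grina for an associated protein. Of these 3 were lower (20.6% of all genes tested were). Grin2b, the subunit of slowly closing receptors, measured 600.2, 516, 605, 480.4 and 612 CPM in the SP libraries and 393, 390.2, 435, 362 and 481 CPM in the LP libraries. Each LP library was below its SP partner and the difference was -0.44 ± 0.04 (SE, edgeR adjusted p = 7.53e-07). The TTX arms differed by 0.05 ± 0.11 (SE, edgeR adjusted p = 0.765), and the contrast was -0.51 ± 0.13 (SE, edgeR adjusted p = 0.00809). Grin2a was lower by -0.43 ± 0.05 (SE, edgeR adjusted p = 3.25e-06) and the obligatory subunit Grin1 by -0.25 ± 0.05 (SE, edgeR adjusted p = 6.79e-04). Grin2c, whose mean stayed below 2 CPM, was higher (0.86 ± 0.19 SE, edgeR adjusted p = 0.00145), and Grina, Grin3a and Grin2d did not pass the test (0.03, -0.06 and -0.01).

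Of 9 AMPA and kainate receptor genes 4 were lower and 1 was higher, and all 5 encode kainate receptor subunits. Grik3, Grik5, Grik2 and Grik4 were lower by -0.31, -0.19, -0.18 and -0.18, and Grik1 was higher by 0.23, while the AMPA subunits Gria1, Gria2 and Gria4 did not pass the test (-0.07, -0.13 and 0.11). Of 13 GABA-A receptor genes 6 were lower and 1 was higher, with Gabrb2 (-0.39 ± 0.05 SE, edgeR adjusted p = 5.09e-06), Gabra5 (-0.34) and Gabrb1 (-0.34) at the lower end. Only Grik3 of the AMPA and kainate genes was called without the block, and 3 GABA-A receptor genes were lower. Over all genes tested, 20.6% were lower and 21% were higher in the blocked fit.

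Postsynaptic scaffold and adhesion genes were lower in 14 and higher in 4 of 24 cases (median -0.14), against 20.6% and 21% of all genes. Nlgn1, a neuroligin of excitatory synapses, and Dlg2, which encodes PSD-93, were lower by -0.40 ± 0.05 (SE, edgeR adjusted p = 1.07e-05) and -0.37 ± 0.04 (SE, edgeR adjusted p = 5.87e-06). Of 26 genes of vesicle release, 13 were lower and 2 were higher, led by the vesicle glycoprotein Sv2b (-0.56 ± 0.06 SE, edgeR adjusted p = 2.75e-06), the calcium sensor Doc2b (-0.43) and the priming factor Unc13a (-0.31). The release proteins Syt1, Vamp2 and Snap25 did not pass the test (-0.04, 0.02 and -0.02). Sv2b did not pass without the block (edgeR adjusted p = 0.1), and without it 4 scaffold genes and 5 release genes were lower.

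Zinc finger transcription factor genes were frequent among the 12 largest decreases. Zfp551, Zfp712, Zfp128, Zkscan4, Zfp273, Zfp39 and Zfp786 were 7 of these 12. Zfp128 measured 7.29, 5.62, 6.31, 5.39 and 7.13 CPM in the SP libraries and 3.75, 2.896, 2.199, 2.97 and 3.64 CPM in the LP libraries. The SP and LP libraries did not overlap, and the difference was -0.997 ± 0.10 (SE, edgeR adjusted p = 3.64e-07). Zfp712 and Zkscan4 fell by similar amounts (-1.02 and -0.996) and were lower in LP TTX too (-0.61 and -0.52). After 2 h Bic alone, Zfp128, Zfp712 and Zkscan4 averaged 2.30, 1.23 and 1.75 CPM, against 3.09, 2.52 and 2.75 CPM in LP TTX/NMDA. The means of Zfp273, Zfp39 and Zfp786 were also lower after 2 h Bic, and that of Zfp551 was higher (1.64 against 1.42 CPM). When all genes with a Zfp symbol and a number were counted, 191 of 361 were lower and 18 were higher. Over all genes tested, these shares were 20.6% and 21%. This Zfp set was chosen after the values above were seen. Its median was -0.22, and -0.07 in the TTX arms, where 102 were lower and 42 higher. Without the block 123 of the Zfp genes were lower and 7 were higher. Many of these genes have close paralogs, and the authors' counting left out reads that mapped to several places.

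Other large decreases were Col15a1, a basement membrane collagen, from 35.6, 33.8, 25.1, 19.8 and 27.6 CPM in SP to 15.9, 15.1, 11.3, 10.6 and 16.9 CPM in LP (-1.004 ± 0.07 SE, edgeR adjusted p = 5.28e-09), and Adamts3, a procollagen protease, from 27.1, 24.8, 23.5, 17.8 and 23.8 to 10.6, 12.7, 12.8, 9.41 and 14.3 CPM (-0.97 ± 0.07 SE, edgeR adjusted p = 3.17e-08). The means of Adamts3 lay between 40.4 and 45.9 CPM in untreated, Bic and TTX cultures, and both TTX/NMDA arms were below them. Rpusd2, a pseudouridine synthase, fell by -0.95, Zfp551 by -1.08, Insm1 by -1.05 and Pard6b by -0.89.

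Cholesterol synthesis genes, which include the targets of SREBP2, were lower in 13 and higher in 3 of 22 cases (median -0.15, and 0.19 in the TTX arms). Srebf2, which encodes SREBP2, was lower by -0.28 ± 0.04 (SE, edgeR adjusted p = 9.62e-05), and Msmo1 and Fdft1 did not pass the test (0.08 and -0.09). Without the block 3 were lower. The Mef2 and class IIa HDAC list had 4 lower and 4 not called of 8 (Hdac7 -0.36, Mef2a -0.23), and PGC-1 and mitochondrial biogenesis had 4 lower and 8 not called of 12 (Twnk -0.24, Tfam -0.13, 1 lower by DESeq2), while Ppargc1a measured 76.2 and 76.8 CPM. Of 13 DNA methylation genes, 5 were lower and 2 were higher, against 20.6% and 21% of all genes tested. Of 9 genes of the mitochondrial calcium uniporter 3 were lower, among them the pore Mcu (-0.15), and 3 were higher. Without the block no uniporter gene was called (3 at an unadjusted p under 0.05). In that fit 1 gene each of the DNA methylation, Mef2 and HDAC, and mitochondrial biogenesis lists was lower.

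The lists of stress and survival genes differed in how many of their members were higher. Of 18 Nrf2-linked redox genes 15 were higher and 1 was lower, against 21% and 20.6% of all genes tested. The median of these redox genes was 0.32, and 0.07 in the TTX arms. The cystine transporter Slc7a11 rose from a mean of 18.6 to 30.2 CPM (0.72 ± 0.06 SE, edgeR adjusted p = 4.18e-08), Nfe2l2, which encodes Nrf2, from 14.4 to 23.1 CPM (0.71 ± 0.06 SE, edgeR adjusted p = 1.26e-07), and Osgin1 and Nqo1 differed by 0.82 and 0.76. Without the block 8 were higher, and Nfe2l2 was not (edgeR adjusted p = 0.0652). Of 24 integrated stress response targets 14 were higher and 1 was lower (median 0.16, and 0.30 in the TTX arms, where 8 were higher and 1 was lower), with Ppp1r15a (0.73 ± 0.06 SE, edgeR adjusted p = 9.17e-08) and Cebpb (0.63) at the top and Asns (-0.08), Slc7a5 (0.10) and Slc3a2 (0.10) not called. Without the block 4 of them were higher.

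Of 16 p53 targets 10 were higher and none was lower by edgeR's test (0 at an unadjusted p under 0.05 and 0 by DESeq2), and 8 were higher without the block. Beside Btg2, the death receptor Eda2r rose from a mean of 13.2 to 21.5 CPM (0.73 ± 0.07 SE, edgeR adjusted p = 2.97e-07), Cdkn1a, the cell cycle inhibitor p21, by 0.62 ± 0.05 (SE, edgeR adjusted p = 6.19e-08) and Pmaip1, which encodes the BH3 protein NOXA, by 0.71 ± 0.06 (SE, edgeR adjusted p = 9.28e-08). In the Bcl2 family 6 of 17 were higher and 2 were lower, with a median of 0.02. Bcl2l11, which encodes the proapoptotic BIM, rose from 7.71 to 15.5 CPM (1.02 ± 0.06 SE, edgeR adjusted p = 1.78e-09), and the antiapoptotic Bcl2 and Mcl1 rose by 0.53 and 0.51. The difference of Bcl2l11 was as large in the TTX arms (1.03 ± 0.09 SE, edgeR adjusted p = 1.20e-05), with a contrast of -0.07 (edgeR adjusted p = 0.76). Of 17 FoxO factors and linked targets 9 were higher and 3 were lower, with Irs2 (0.99 ± 0.06 SE, edgeR adjusted p = 5.02e-10) and Cited2 (0.63) in front. Of 16 cytosolic heat shock genes 7 were higher and 1 was lower, led by the cochaperone Bag3 (1.12 ± 0.10 SE, edgeR adjusted p = 1.46e-07). The heat shock median was 0.08, and 0.18 in the TTX arms, where 9 were higher. Without the block 4 heat shock genes were higher. In that fit the FoxO list and the Bcl2 family each had 4 higher and 1 lower. Of 19 chaperones of the endoplasmic reticulum 5 were higher and 3 were lower (Hspa5 0.25), near the shares of all genes tested, of which 21% were higher and 20.6% were lower.

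Clock genes with activity-dependent members were higher in 7 and lower in 2 of 19 cases. Rorb (1.88 ± 0.08 SE, edgeR adjusted p = 1.14e-11), Nfil3 (1.501 ± 0.07 SE, edgeR adjusted p = 6.69e-11) and Per1 (0.92 ± 0.05 SE, edgeR adjusted p = 4.52e-10) had the largest differences, while Nr1d1 and Nr1d2 did not pass the test (-0.03 and 0.04). Of 20 glucose transporter and glycolysis genes 5 were higher and 3 were lower, also near the shares of all genes tested (21% and 20.6%), with Slc2a1 at 0.74 ± 0.05 (SE, edgeR adjusted p = 1.49e-08) and Slc2a3, the neuronal glucose transporter, at 0.42 ± 0.04 (SE, edgeR adjusted p = 1.37e-06). Of 16 SRF and actin targets 2 were higher, Ccn1 and Tpm4 (0.57), and 2 were lower, Actg1 (-0.22) and Ccn2 (-0.21). Both counts were below the shares of all genes tested.

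**Figure D3:**
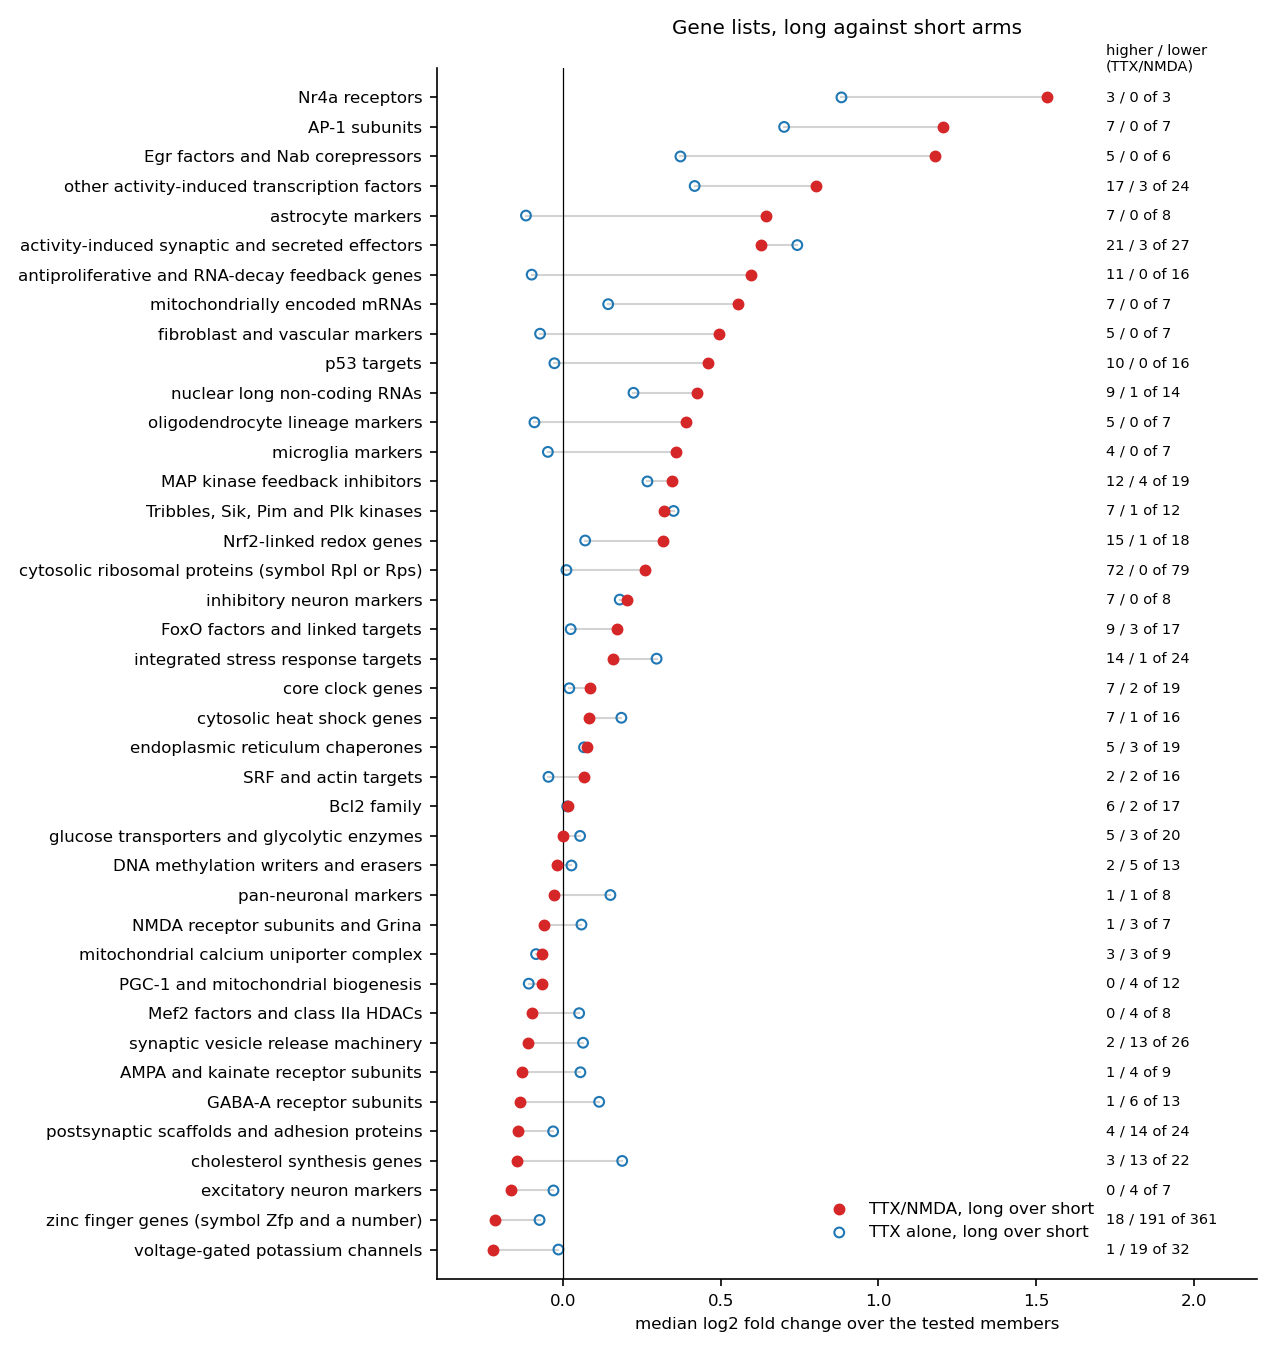
Median log2 fold change (horizontal axis, long over short) of the tested members of each gene list, with TTX/NMDA as filled red points and TTX alone as open blue points. The numbers at the right count the members that were higher and lower with TTX/NMDA, from 3 of 3 Nr4a receptors at the top to 19 of 32 potassium channels that were lower at the bottom.

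RNA of glial and other non-neuronal cells was more abundant in LP libraries with NMDA. Of 8 astrocyte markers 7 were higher (median 0.64), and of 7 oligodendrocyte lineage markers 5 (median 0.39). Of 7 fibroblast and vascular markers 5 were higher (median 0.49), and of 7 microglia markers 4 (median 0.36), against 21% of all genes. None of these markers was lower by edgeR's test (0 at an unadjusted p under 0.05 and 0 by DESeq2). Without the block 4 astrocyte, 1 oligodendrocyte lineage and 1 fibroblast and vascular marker were higher and no microglia marker was (2 at an unadjusted p under 0.05), and DESeq2 with the block called 2 of the microglia markers. The summed astrocyte marker level was 1183, 1106, 963, 1332 and 902 CPM in the SP libraries and 1692, 1426, 1191, 2047 and 1317 CPM in the LP libraries. All 5 preparations were higher in LP, and the arms overlapped because preparations differed. In the TTX arms the sums ranged from 1032 to 1542 CPM in SP and 983 to 1460.0 CPM in LP, and none of the 8 astrocyte genes was called in either direction by edgeR's test (0 at an unadjusted p under 0.05 and 0 by DESeq2). Gfap, the astrocyte intermediate filament, measured 339, 261, 193, 385 and 169 CPM in the SP libraries and 515, 314, 276, 657 and 313 CPM in the LP libraries (log2 difference 0.62 ± 0.06 SE, edgeR adjusted p = 9.16e-07, and -0.43 ± 0.26 SE, edgeR adjusted p = 0.268 in the TTX arms). Slc1a3 and Aqp4 were higher by 0.72 ± 0.05 (SE, edgeR adjusted p = 7.46e-09) and 0.75 ± 0.06 (SE, edgeR adjusted p = 6.19e-08), and the glutamate transporter Slc1a2 did not pass the test (0.08). Sox9 had the largest difference of the list (1.34 ± 0.05 SE, edgeR adjusted p = 1.02e-11), and it was also higher after Bic alone, with 61.3 ± 15.5 CPM at 1 h against 15.4 ± 4.43 CPM in untreated cultures.

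Excitatory neuron markers moved the other way, with 4 of 7 lower (Slc17a7 -0.49 ± 0.05 SE, edgeR adjusted p = 2.25e-06, Camk2a -0.42 ± 0.05 SE, edgeR adjusted p = 2.54e-06). Without the block 2 of these markers were lower. Their TTX arms had 2 higher and 1 lower of 7 (median -0.03). Of 8 inhibitory neuron markers 7 were higher (Gad1 0.22, Gad2 0.19, Npy 0.37), though none was called without the block (1 at an unadjusted p under 0.05). The inhibitory markers had a median of 0.20 with NMDA and 0.18 in the TTX arms, where 3 were higher and 0 were lower. Their contrasts had a median of -0.003, and 0 of 8 were called. Of 8 pan-neuronal markers 1 was higher (Nefl 0.20) and 1 was lower (Tubb3 -0.27).

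Mitochondrially encoded mRNAs and mRNAs of ribosomal proteins were also higher in LP. All 7 tested mitochondrially encoded mRNAs were higher (median 0.56), for example mt-Nd4 by 0.68 ± 0.06 (SE, edgeR adjusted p = 1.80e-07) and mt-Cytb by 0.56 ± 0.06 (SE, edgeR adjusted p = 1.02e-06). Mitochondrial genes took 0.900% to 1.37% of the counts in SP libraries and 1.40% to 1.87% in LP libraries, so that the arms did not overlap. Of 79 cytosolic ribosomal protein genes, a set counted after the data were seen, 72 were higher and none was lower by edgeR's test, by DESeq2 or at an unadjusted p under 0.05 (0 genes each, median 0.26), against 1 in the TTX arms (median 0.01). Without the block 46 of them were higher. Ribosomal protein genes have many processed pseudogenes, which can share their reads.

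**Figure D4:**
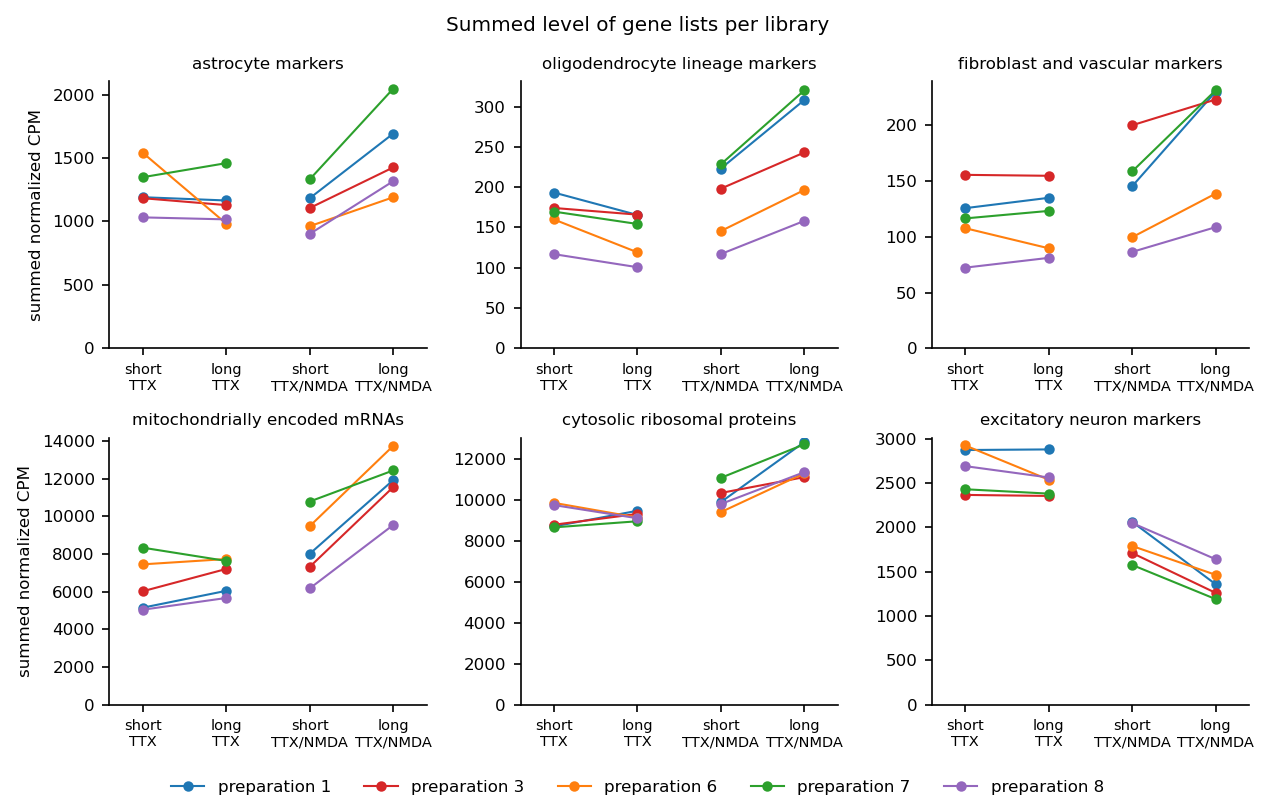
Summed normalized CPM (vertical axes, from 0) of 6 gene lists in the short and long TTX and TTX/NMDA arms, with 1 line for each preparation and protocol pair. Astrocyte, oligodendrocyte lineage and fibroblast sums and mitochondrial mRNAs go up in all 5 preparations with TTX/NMDA, and excitatory neuron markers go down in all 5.

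Nuclear and unannotated RNAs were more often higher than lower. Of 14 nuclear long non-coding RNAs 9 were higher and 1 was lower (median 0.42). Without NMDA, in the TTX arms, 9 of the 14 were also higher and 0 were lower by edgeR's test (median 0.22). The contrast was higher for 4 and lower for 2 of them (median 0.11). Malat1, an abundant RNA of nuclear speckles, measured 455, 439, 483, 478 and 464 CPM in the SP libraries and 1049, 1129, 892, 994 and 938 CPM in the LP libraries, so that the arms did not overlap (1.12 ± 0.06 SE, edgeR adjusted p = 9.06e-11). Kcnq1ot1, Neat1 and Snhg1 differed by 1.39 ± 0.09 (SE, edgeR adjusted p = 3.28e-09), 0.98 ± 0.08 (SE, edgeR adjusted p = 8.69e-08) and 0.98 ± 0.06 (SE, edgeR adjusted p = 1.76e-09), while Rian, Snhg14 and Xist did not pass the test (-0.02, 0.02 and -0.03). By annotated class, 114 of 328 gene models of the class TEC, which lack experimental evidence, were higher and 10 were lower (median 0.21), and 15 of 34 sense intronic transcripts were higher and 1 was lower (median 0.34). For long intergenic RNAs these counts were 99 and 32 of 507, and for protein-coding genes 2976 and 3210 of 14023 (median 0.00). The shares higher were 34.8% for TEC, 44.1% for sense intronic and 19.5% for long intergenic RNAs, against 21% of all genes tested. TEC and sense intronic models lie within or beside other genes, and reads of unspliced host RNA can fall on them; the share of such reads was not tested.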

How the data were processed

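RNA of mouse hippocampal primary neurons was sequenced by the authors from strand-specific poly-A libraries (single-end, 75 cycles). Per the labels and the study's methods, reads were processed with bcl2fastq 2.20.0.422, aligned to GRCm38 with STAR 2.5.4b under the annotation of Ensembl release 94, and counted per gene with featureCounts 1.6.5. The authors deposited raw read counts for 54532 genes in 45 libraries, without normalization. Symbols and positions were taken from GENCODE M21, which matched 54495 identifiers.

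Groups and preparation numbers came from the sample labels. Same-numbered libraries of the SP and LP TTX/NMDA arms, from the same culture preparation, deviated together from their arm means (r from 0.28 to 0.72, and from 0.11 to 0.66 in the TTX arms), so the preparation was used as a block. Genes kept by filterByExpr were tested with edgeR 4.0.16 (R 4.3.3, TMM factors, quasi-likelihood test, Benjamini-Hochberg threshold 0.05), over the 10 libraries of a comparison, or over 20 for the difference between TTX/NMDA and TTX. The SE is the log2 fold change divided by the root of the F statistic. The scripts were tested on simulated data. Displayed CPM were scaled with TMM factors over 45 libraries. The alternatives were no block, all genes with a read, RLE and upper quartile factors, DESeq2 1.42.0, all 45 libraries in the fit and each preparation left out.

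Named genes were the 12 largest increases and 12 largest decreases with the same direction in all 5 preparations and a mean of at least 2 CPM, 10 fixed activity-induced genes, up to 5 called and 3 uncalled members of each of 38 gene lists, and the 6 largest differences between TTX/NMDA and TTX in each direction among called genes with a mean of at least 2 CPM over the 10 TTX/NMDA libraries. Of the members these rules allow, the text gives those that carry each list. Values of some single members are not reported here. Membership of the arms follows the labels, but the choice of these arms, the genes and the lists was made with earlier results of these data known. Columns with the authors' own comparisons were not used here. Promoter sequences are RefSeq's (GRCm38.p6), of which 32 of the 40 genes named by size, by the fixed list or by the difference had one.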

Additional observations from a re-analysis of the deposited data

Results flagged for a closer look

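Of 80 arms tested, 2 held a library set apart from the other 4. Gm44799 reached 4.19 CPM in preparation 1 of the LP TTX/NMDA arm, above the other 4 libraries, and Zkscan4 was 2.20 CPM in preparation 3 of the same arm, below the other 4. Chance sets apart about 1 in 20 such arms.

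The long-minus-short difference with NMDA minus that with TTX alone passed edgeR's quasi-likelihood test for 12 genes named for its size. It was 5.07 for Ccn1, 3.68 for Btg2, 3.31 for Gm43359, 2.90 for Kcnj2, 2.87 for Klf4 and 2.77 for Trib1 on the log2 scale. It was -2.53 for Klf10, -2.24 for Pard6b, -2.04 for Insm1, -1.84 for Ccnj, -1.80 for Rnf217 and -1.62 for Zfp189.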

How the results depend on the processing

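Without the replicate block, the counts of genes higher and lower in LP were 1279 and 1321 for TTX/NMDA, 1194 and 965 for TTX alone, and 323 and 926 for the difference between them. All 2600 TTX/NMDA calls of the unpaired fit were among the 6667 of the paired fit. DESeq2 without the block over all genes with a read, added after the data were seen, gave 1587 and 1727 for TTX/NMDA and 456 and 1204 for the difference. Upper quartile factors gave 2471 and 1495 for the difference. With each preparation left out in turn, TTX/NMDA counts ranged from 2721 to 3408 higher and from 2341 to 3313 lower, TTX counts from 1327 to 2084 and from 1182 to 1966, and those of the difference from 1019 to 1600 and from 1315 to 2056, where leaving out preparation 1, 3 or 8 gave 1548, 1632 and 1315 lower. The other alternatives kept each of these counts within 1.5 times the value reported.

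No named gene that passed the test changed direction in the TTX/NMDA comparison under any of these alternatives. Of 202 such genes, 72 lost their call without the replicate block, among them Klf10, Zfp189, Nab2, Serpinb2, Grin2c, Grik1, Grik2, Grik4, Grik5, Gabrb1, Kcng2, Sv2b, Hspa5, Nfe2l2, Mcu, Tfam, Actg1, Ccn2, Mef2a, Npy, Gad1, Gad2, Tubb3 and Gfap. DESeq2 with the block left 15 without a call, among them Klf10, Zfp189, Tfam and Ccn2. Leaving out a single preparation ended the call of Zfp189 (preparation 1, 6 or 8), Nab2 (1 or 7), Mcu (1 or 8), Ccn2 (3 or 7), Grik2 (7) and Tfam (1, 6, 7 or 8). The LP library of preparation 6 was the shallowest, and genes below 1 CPM rest on few reads in it.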
